A study of Mus musculus with 6 samples.

Results

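The cardiac transcription factors described here are the 10 genes *Gata4*, *Gata6*, *Nkx2-5*, *Tbx5*, *Tbx20*, *Hand2*, *Mef2a*, *Mef2c*, *Mef2d* and *Srf*. They were taken by symbol from the 17556 genes of the deposited expression table, and the rule used no measured value. All 10 were found, and all 10 were among the 13817 genes that passed the filter on low counts. RNA came from whole left ventricles of mice aged 6 to 10 weeks, collected 4 days post injury (dpi) after permanent ligation of the left anterior descending artery, a surgical myocardial infarction (MI). All mice carried floxed *Yap* (both alleles) and floxed *Wwtr1* (one allele) and ate a tamoxifen citrate diet from the time of surgery. The 3 Cre positive mice also had a copy of MerCreMer, a tamoxifen inducible Cre, driven by the endogenous periostin promoter. The 3 Cre negative mice were siblings with wildtype periostin. The Cre acts in myofibroblasts, the activated fibroblasts of the healing infarct, whereas the RNA is that of every cell type of the ventricle. No uninjured ventricle was analysed here.

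These factors bind DNA in the nuclei of cardiomyocytes and switch on the genes of contraction, conduction and calcium handling. Gata4 and Gata6 are zinc finger proteins, Nkx2-5 is a homeodomain protein, Tbx5 and Tbx20 are T-box proteins, Hand2 is a basic helix-loop-helix protein, and the Mef2 proteins and Srf belong to the MADS box family. They bind each other and often sit together on the same enhancers, and several of them are also made in cardiac fibroblasts, endothelium or smooth muscle.

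The estimated counts summed to between 13177888 and 14827579 per ventricle. Values of single genes are given below as normalized counts, which are counts scaled by edgeR's TMM factors to the mean library size of 14264187, in the order of replicates 1, 2 and 3. The targeted gene *Yap1* stood at 1547, 1473 and 1419 normalized counts in Cre negative and 1615, 1436 and 1474 in Cre positive ventricles, and *Wwtr1* at 1616, 1463 and 1604 against 1614, 1559 and 1661. Their log2 fold changes were 0.03 ± 0.09 and 0.05 ± 0.08 (SE, edgeR adjusted p = 0.935 and 0.876). *Postn* stood at 12157, 24639 and 26862 against 12682, 14240.2 and 13486 (log2 fold change of -0.66 ± 0.27 (SE), edgeR adjusted p = 0.714), with Cre negative 1 below every Cre positive ventricle. Cre negative 1 stood apart from the other 5 libraries. A chi-square comparison of its counts with theirs gave 44.2 to 68.3 per gene, against 8.07 to 17.0 within the other 5, where 1 would be sampling noise, and no library was a copy of another. Replicate 2 of each genotype had 11 to 16 normalized counts over 4 Y-linked genes, and the other 4 ventricles 1584 to 2198. By these genes, replicate 2 of each genotype was female and the other ventricles were from males. All 10 cardiomyocyte markers were detected in every ventricle, with a summed level of 13930 to 19310 CPM (counts scaled to library size), and the atrial markers *Myl7*, *Sln*, *Myl4* and *Bmp10* summed to 19.2 to 814 CPM.

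All 10 factors lay in the upper part of the table by level and covered a wide range, with some pairs at near-equal levels. Levels between genes are compared on the deposited TPM scale, which is divided by gene length. *Nkx2-5* was the most abundant at 187 ± 23 TPM (SD, n = 6 ventricles), above 95.3% of the genes in the table. *Srf* followed at 94.0 ± 7.8 TPM and *Gata4* at 93.0 ± 5.5 TPM. The *Srf* level was above that of *Gata4* in 2 of 6 ventricles, so this pair had no fixed order. *Mef2d* at 73.3 ± 4.1 TPM was above *Mef2a* at 66.1 ± 4.1 TPM in 6 of 6 ventricles, although their ranges overlapped. *Mef2a* was above *Hand2* (63.6 ± 9.5 TPM) in 3 of 6 ventricles, and *Hand2* above *Gata6* (55.0 ± 4.8 TPM) in 5 of 6. *Tbx20* (34.0 ± 3.5 TPM) lay below *Gata6* and above *Tbx5* in every ventricle with no overlap of ranges. *Tbx5* (20.8 ± 5.8 TPM) and *Mef2c* (20.1 ± 0.86 TPM) closed the order, each higher in 3 of 6 ventricles. Even *Mef2c* was above 66.0% of the genes in the table.

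**Figure D1:**
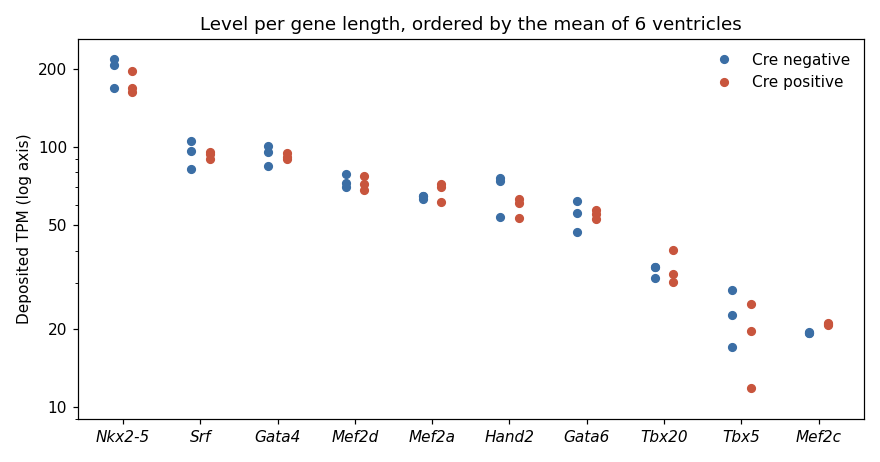
Deposited TPM (log axis) of the 10 factors in each ventricle, ordered by the mean of 6 ventricles; each point is 1 ventricle, blue for Cre negative and red for Cre positive. *Nkx2-5* lies above all others (162.87 to 217.82 TPM), and *Tbx5* spreads the most (11.9 to 28.24 TPM) beside the narrow *Mef2c* (19.27 to 21.05 TPM).

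The comparison of Cre positive with Cre negative ventricles asked whether the level of these factors in the injured ventricle differed between the genotypes. The Cre, the periostin allele that carries it and loss of *Yap* and *Wwtr1* come together in these mice and cannot be told apart here. None of the 10 passed edgeR's quasi-likelihood test. The number with an adjusted p under 0.05 was 0 of 10, beside 0.00724% of all genes tested (1 gene, the guanylate-binding protein gene *Gbp2b*), and the number with an unadjusted p under 0.05 was also 0 of 10, beside 5.83% of all genes. The latter count was 2 of 10 without Cre negative 3 (*Nkx2-5* and *Hand2*), beside 9.61% of all genes in that fit, and 1 of 10 without Cre positive 1 (*Nkx2-5*), beside 3.98%. With the summed cardiomyocyte marker level as a covariate it was 1 of 10 (*Gata6*, with an estimate above 0), beside 10.1%. That level was itself lower in every Cre positive ventricle, so in fits with this covariate level and genotype can hardly be told apart. DESeq2 called 0 of 10 as well. For 0 of 10 did all Cre positive ventricles lie above all Cre negative ones, beside 7.55% of all genes, and for 0 of 10 did they all lie below, beside 6.85%. The estimates of all 10 were below 0, from -0.01 for *Mef2c* to -0.38 for *Tbx5* on the log2 scale, with a median of -0.14 beside 0.01 over all genes. Over all genes tested, 6740 estimates were below 0 and 7077 above, and the sign counts of the lists below stand beside this split. On log2(TPM + 1), where the median of all genes was 0.11, 6 of the 10 estimates were below 0 and all 10 were below that median. Cre negative 1 had the highest normalized count of the 6 ventricles in all 10 factors. Without it, 6 of the 10 estimates were below 0 and their median was -0.05.

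**Figure D2:**
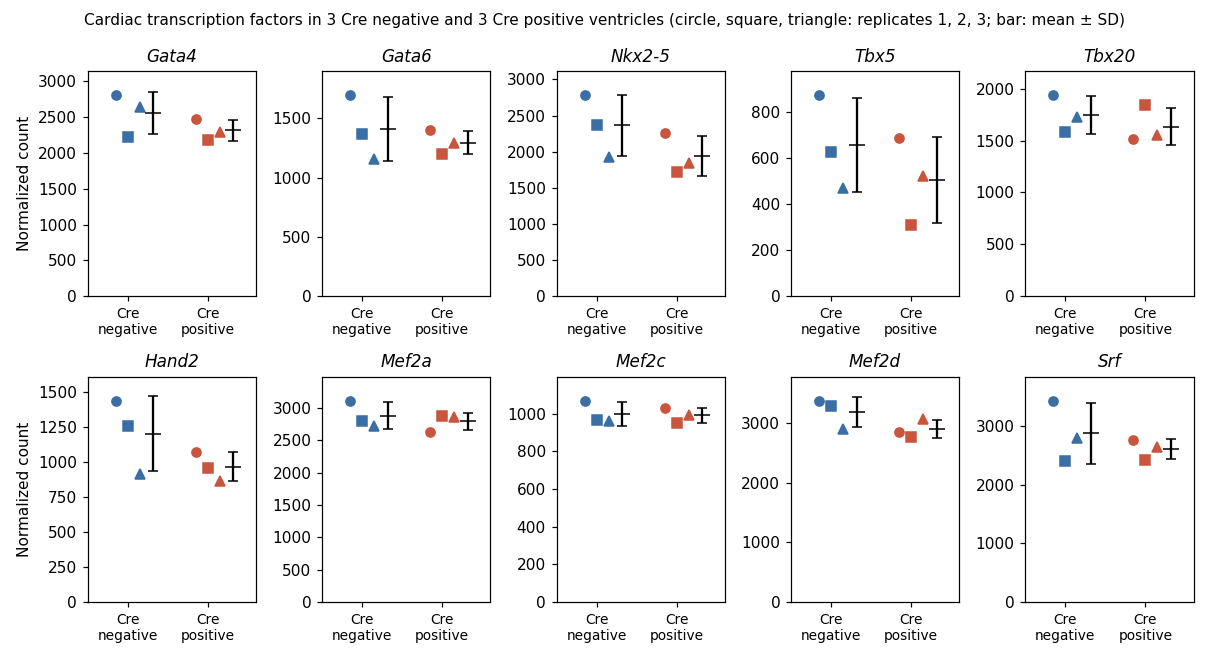
Normalized counts of each factor in 3 Cre negative (blue) and 3 Cre positive (red) ventricles, with circle, square and triangle for replicates 1, 2 and 3 and the mean ± SD beside them. The blue circle, Cre negative 1, is the highest point in all 10 panels, and the genotypes overlap in every panel.

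Gata4 and Gata6 recognise GATA motifs in the control regions of sarcomere and natriuretic peptide genes. *Gata4* (gene number 14463, chr14:63198914-63271712 on GRCm38.p6) had 2811, 2229 and 2638 normalized counts in Cre negative and 2479, 2188 and 2286 in Cre positive ventricles. The Cre positive values lay inside the Cre negative range except for 2188, the lowest of the 6. Its means were 2559 ± 299 and 2318 ± 148 (SD, n = 3 each), with a log2 fold change of -0.14 ± 0.11 (SE) and an edgeR adjusted p of 0.727. *Gata6* (gene number 14465, on chromosome 18) had 1696, 1368 and 1158 normalized counts in Cre negative and 1397, 1197 and 1289 in Cre positive ventricles. Here all Cre positive values lay within the Cre negative range, and the log2 fold change was -0.12 ± 0.14 (SE; edgeR adjusted p = 0.809). It was -0.24 without Cre negative 3, 0.03 without Cre negative 1, 0.01 on log2(TPM + 1), and 0.25 with the cardiomyocyte marker level as a covariate. The antisense gene *Gata6os* overlaps *Gata6*, and since the strand setting of the counting is not given in the sources used here, reads of the pair may be shared. *Gata4* made up 60.4% to 68.0% of the summed *Gata4* and *Gata6* TPM. The log2 ratio of *Gata4* to *Gata6* was 0.78 ± 0.27 in Cre negative and 0.74 ± 0.02 in Cre positive ventricles (SD, n = 3; exact two-sided permutation p = 1.0), and the highest ratio, 1.09, was that of Cre negative 3.

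Nkx2-5 is a partner of Gata4 and Tbx5 and is required for heart formation and conduction. *Nkx2-5* (gene number 18091, chr17:26838664-26844988) had 2786, 2373 and 1933 normalized counts in Cre negative and 2254, 1721 and 1845 in Cre positive ventricles. A pair of Cre positive ventricles, replicates 2 and 3, lay below every Cre negative one, while replicate 1 lay among them. The means were 2364 ± 427 and 1940.2 ± 279 (SD, n = 3 each). The log2 fold change was -0.28 ± 0.16 (SE; edgeR adjusted p = 0.714), with a 95% interval from -36.4% to 5.99%. It was -0.15 without Cre negative 1, and 0.09 with the summed level of cardiomyocyte markers as a covariate.

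Hand2 acts in the right ventricle and neural crest of the embryo and is also made in cardiac fibroblasts. *Hand2* (gene number 15111, chr8:57320983-57324517) had 1438, 1255 and 912 normalized counts in Cre negative and 1071, 958 and 864 in Cre positive ventricles. The Cre negative replicates 1 and 2 lay above all Cre positive ventricles, and replicate 3 lay below 2 of the 3. The means were 1201 ± 267 and 964 ± 104 (SD, n = 3 each). The estimate of *Hand2* was the second lowest of the 10, with a log2 fold change of -0.32 ± 0.17 (SE; edgeR adjusted p = 0.714) and a 95% interval from -38.9% to 5.55%. It was -0.48 without Cre negative 3, -0.17 without Cre negative 1, and 0.09 with the cardiomyocyte marker level as a covariate.

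The RefSeq promoter of *Hand2* is shown because it holds 2 matches to the core letters that GATA factors bind. The line gives bases 250 to 51 before the start on the plus strand, chr8:57320733-57320932 of GRCm38.p6, with matches to GATAA on either strand in capitals, 214 and 172 bases before the start.
Hand2: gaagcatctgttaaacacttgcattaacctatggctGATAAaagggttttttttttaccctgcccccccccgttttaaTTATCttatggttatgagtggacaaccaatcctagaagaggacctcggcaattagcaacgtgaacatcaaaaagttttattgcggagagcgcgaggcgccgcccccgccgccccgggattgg
The letters GATAA or their reverse complement occur in the 250 bases before 22.6% of the 32851 RefSeq starts, so such a match is common. Promoters were listed for 7 of the 10 factors, with 9 starts, and 2 of these windows hold GATAA (*Hand2* and *Mef2c*). *Gata4*, *Gata6* and *Tbx5* had no entry.

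Tbx5 activates conduction and calcium handling genes and is needed for atrial rhythm in the adult, and Tbx20 maintains adult cardiomyocyte function. *Tbx5* (gene number 21388, chr5:119796514-119885220) had 875, 627 and 468 normalized counts in Cre negative and 686, 309 and 520.4 in Cre positive ventricles. It varied the most of the 10, by 2.83-fold between the highest and the lowest ventricle, and the spread within each genotype was larger than the difference between them. The means were 656 ± 205 and 505 ± 189 (SD, n = 3 each), and the log2 fold change was -0.38 ± 0.31 (SE; edgeR adjusted p = 0.737), with an interval from -53.4% to 27.2%. It was -0.66 without Cre positive 1, -0.57 without Cre negative 3, and -0.12 without either Cre positive 2 or Cre negative 1. The RefSeq gene *Gm5563* overlaps *Tbx5*. *Tbx20* (gene number 57246, chr9:24720812-24774303) had 1939.5, 1579 and 1725 normalized counts in Cre negative and 1511, 1840.5 and 1551 in Cre positive ventricles. Cre positive 2, which was the lowest ventricle for *Tbx5*, was the second highest for *Tbx20*. The log2 fold change of *Tbx20* was -0.10 ± 0.12 (SE; edgeR adjusted p = 0.81).

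*Tbx5* contributed 22.8% to 45.1% of the summed *Tbx5* and *Tbx20* TPM. The log2 ratio of *Tbx5* to *Tbx20* was -0.29, -0.47 and -1.02 in Cre negative and -0.28, -1.76 and -0.73 in Cre positive ventricles. The genotypes overlapped and the exact permutation p was 0.7 (adjusted p = 1.0 over 5 ratios, where 3 against 3 cannot give a p under 0.1). The lowest ratio, that of Cre positive 2, set the direction of the difference, which was -0.33 with this ventricle and 0.09 without it. Leaving out any other ventricle kept the difference below 0, from -0.65 (without Cre positive 1) to -0.18 (without Cre negative 1).

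The Mef2 factors bind an A and T rich site before muscle genes and are held in check by class IIa histone deacetylases. *Mef2a* (gene number 17258, chr7:67231163-67376456) had 3114, 2804 and 2727 normalized counts in Cre negative and 2637, 2874 and 2869 in Cre positive ventricles (log2 fold change of -0.04 ± 0.09 (SE), edgeR adjusted p = 0.895). *Mef2d* (gene number 17261, chr3:88141941-88172091) had 3379.5, 3298 and 2909 against 2856, 2776 and 3080.1 (log2 fold change of -0.14 ± 0.10, adjusted p = 0.722). *Mef2c* (gene number 17260, chr13:83504017-83667079) had 1069.7, 966 and 959.5 against 1030, 954 and 993 (log2 fold change of -0.01 ± 0.08, adjusted p = 0.981). *Mef2c* was the steadiest of the 10, with a coefficient of variation of 4.63% over the 6 ventricles against 33.5% for *Tbx5*. Its interval ran from -13.3% to 13.9%, the narrowest of the Mef2 genes, and larger changes than these lay outside it. On the TPM scale the order differed, and *Mef2c* was at 20.72 to 21.05 TPM in all Cre positive and 19.27 to 19.45 TPM in all Cre negative ventricles. It was 1 of 10 wholly above and 0 of 10 were wholly below, beside 15% and 2.44% of all genes on TPM. TPM moved the median of all genes to 0.11 on the log2 scale, from 0.01 with TMM, and relative to that shift *Mef2c* differed by -0.0019. The RefSeq genes *Gm52043* and *Gm52044* overlap *Mef2c*, and *1700113A16Rik* overlaps *Mef2d*.

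The makeup of the Mef2 family needs no scaling between libraries, since it is read inside each ventricle. *Mef2d* supplied 43.7% to 48.3% of the summed *Mef2a*, *Mef2c* and *Mef2d* TPM, *Mef2a* 39.8% to 43.7% and *Mef2c* 11.9% to 13.9%. The log2 ratio of *Mef2c* to *Mef2d* was -1.93 ± 0.08 in Cre negative and -1.80 ± 0.08 in Cre positive ventricles (SD, n = 3; exact permutation p = 0.2, adjusted p = 0.75). The ratio of *Mef2d* to *Mef2a* differed by -0.09 (exact permutation p = 0.3, adjusted p = 0.75; -0.04 without Cre positive 2 and -0.05 without Cre negative 2) and that of *Mef2c* to *Mef2a* by 0.04 (exact permutation p = 0.8, adjusted p = 1.0). The genotypes overlapped in all 5 ratios tested. *Mef2b*, the remaining family member, had 0 to 4.7 normalized counts and was not tested.

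Srf binds CArG boxes and, with its coactivators, drives genes of the contractile apparatus, the actin cytoskeleton and the immediate early response. *Srf* (gene number 20807, chr17:46546838-46558267) had 3430, 2399 and 2792 normalized counts in Cre negative and 2758, 2423 and 2637 in Cre positive ventricles. The Cre positive values lay within the Cre negative range. The means were 2874 ± 520.1 and 2606 ± 169.5 (SD, n = 3 each), with a log2 fold change of -0.14 ± 0.14 (SE; edgeR adjusted p = 0.772). Without Cre negative 1 the log2 fold change was 0.0015. The microRNA gene *Mir6976* overlaps *Srf*.

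The promoters of *Srf* and of its target *Vcl*, the adhesion protein vinculin, are shown for the CArG boxes in capitals. Both lines give bases 250 to 51 before a RefSeq start of GRCm38.p6. The *Srf* window is on the minus strand at chr17:46556213-46556412, inside the annotated span of the gene, with boxes 82 and 62 bases before the start, and the *Vcl* window is on the plus strand at chr14:20929148-20929347 with a box 227 bases before it.
Srf: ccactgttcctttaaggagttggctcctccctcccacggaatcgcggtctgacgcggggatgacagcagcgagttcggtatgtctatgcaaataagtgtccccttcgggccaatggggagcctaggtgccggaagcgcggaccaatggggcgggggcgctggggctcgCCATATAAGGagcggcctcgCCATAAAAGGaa
Vcl: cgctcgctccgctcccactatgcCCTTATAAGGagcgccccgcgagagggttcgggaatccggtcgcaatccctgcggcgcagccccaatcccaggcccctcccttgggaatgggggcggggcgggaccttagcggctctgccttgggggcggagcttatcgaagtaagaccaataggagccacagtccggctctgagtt
A CArG box on either strand occurs in 1.47% of the 32851 windows of 250 bases. Among the 9 windows of the factors themselves, only that of *Srf* holds one, and none holds the MEF2 site, which is found in 2.92% of all windows. The letters AAGTG, the core of an Nkx2-5 site, occur in 5 of the 9 windows and in 40.7% of all. The T-box core GTGTGA occurs in 1 of 9 (*Mef2c*) and in 12.3% of all, and the E-box CANNTG in 4 of 9 and in 66.2% of all. These matches describe the letters of these windows alone.

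**Figure D3:**
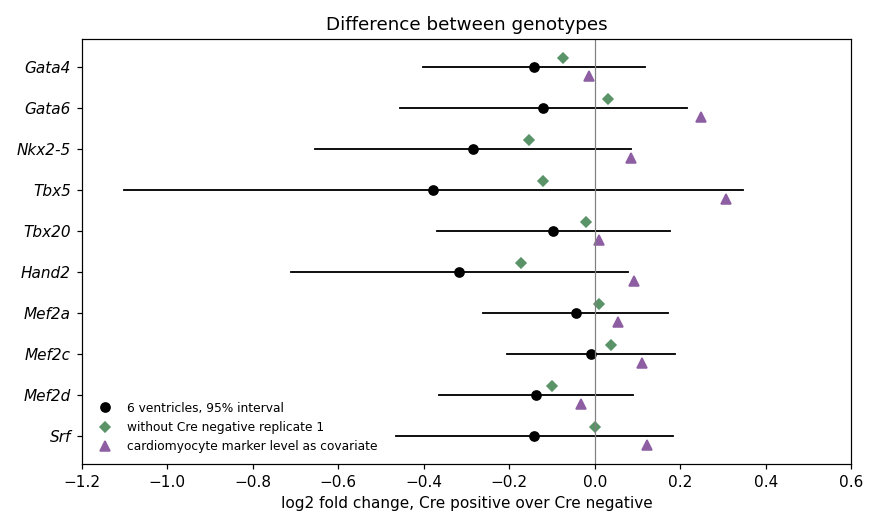
log2 fold change of each factor, Cre positive over Cre negative. Black points with bars are the estimates from 6 ventricles with 95% intervals, green diamonds leave out Cre negative 1, and purple triangles use the cardiomyocyte marker level as a covariate. All 10 bars cross 0, and all 10 black points lie below it (6 of 10 on the TPM scale), against 6 diamonds and 2 triangles. The marker level used for the triangles itself separates the genotypes.

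On the normalized scale, summed cardiomyocyte marker levels were lower in every Cre positive than in every Cre negative ventricle and are given beside the factors. The nearest values were 14830 CPM in Cre positive 1 and 15090 CPM in Cre negative 3. The 10 markers, sarcomere and muscle genes outside the lists of targets, summed to 19310, 16130 and 15090 CPM in Cre negative and 14830, 13940 and 13930 CPM in Cre positive ventricles. All 10 had estimates below 0, 0 of 10 passed the adjusted test and 3 of 10 had an unadjusted edgeR p under 0.05 (*Tcap*, *Myl3* and *Cox6a2*), beside 5.83% of all genes. For 3 of the 10 single markers all Cre positive ventricles lay below all Cre negative ones, beside 6.85% of all genes. In RNA from whole ventricles, fewer cells of a type and less RNA per cell cannot be told apart. Since the marker level separated the genotypes, level and genotype can hardly be told apart in a fit with this level as a covariate. In that fit, 2 of the 10 factors had estimates below 0 (*Gata4* at -0.01 and *Mef2d* at -0.03), and the median of the 10 was 0.09. *Gata6* then stood at 0.25 (edgeR adjusted p = 0.466) and *Tbx5* at 0.31 (adjusted p = 0.79). Divided by the marker level, *Mef2c* was higher in all Cre positive than in all Cre negative ventricles, by 0.23 on the log2 scale (exact permutation p = 0.1, the smallest 3 against 3 can give), and the other 9 overlapped. On that scale 26.2% of all genes lay wholly above and 0.579% wholly below in Cre positive ventricles, beside 1 of 10 and 0 of 10 factors.

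Among 10 relations computed over the 6 ventricles, those of *Nkx2-5* and *Hand2* to the cardiomyocyte markers had the highest r and were the 2 past the adjusted test. For *Nkx2-5*, Pearson's r on the log2 scale was 0.917 (exact permutation p = 0.00556, adjusted p = 0.0486) and Spearman's rho 0.886 (exact permutation p = 0.0333, adjusted p = 0.291). Leaving out Cre negative 1 and 2, the ventricles farthest from the median marker level, gave r = 0.69, and deviations from the genotype means gave r = 0.883. For *Hand2*, r was 0.906 (exact permutation p = 0.00972, adjusted p = 0.0486) and rho 0.829 (exact permutation p = 0.0583, adjusted p = 0.291). Without the same pair r was 0.392 over the 4 ventricles left, while leaving out either alone gave 0.807 (Cre negative 1) and 0.928 (Cre negative 2). Deviations from the genotype means gave r = 0.872, and on that measure *Gata6* (0.966) and *Mef2c* (0.919) were higher than both. The r of *Gata6* was 0.374 without Cre negative 1 and 0.001 without Cre negative 1 and 2. The other 8 factors had r between 0.516 (*Tbx20*) and 0.846 (*Gata6*), with adjusted p from 0.115 to 0.306 in the exact permutation test. With TPM in place of normalized counts, r was 0.762 for *Nkx2-5* and 0.676 for *Hand2*, and neither passed (adjusted p = 0.4 for both).

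The level of *Tbx5* ran with the atrial markers, a relation chosen after seeing the data that did not pass the adjusted test. These markers summed to 523, 351 and 60.1 CPM in Cre negative and 814, 19.2 and 146 CPM in Cre positive ventricles, with both the highest and the lowest value among Cre positive ventricles. *Bmp10* was counted in Cre negative 1 alone. *Tbx5* was lowest in Cre positive 2, which had the lowest atrial marker level, and high in Cre negative 1 and Cre positive 1, which had the highest. Pearson's r was 0.94 (exact permutation p = 0.00556, adjusted p = 0.0556 over 10 factors) and Spearman's rho 0.943 (exact permutation p = 0.0167, adjusted p = 0.111). Without Cre positive 2 and Cre negative 3, the ventricles farthest from the median, r was 0.74. With the atrial marker level as a covariate, the log2 fold change of *Tbx5* was -0.24 (edgeR adjusted p = 0.812). *Gata6*, *Nkx2-5* and *Mef2c* had r of 0.771, 0.825 and 0.756 with these markers (exact permutation, adjusted p = 0.205 for each), and *Tbx20* had -0.367.

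**Figure D4:**
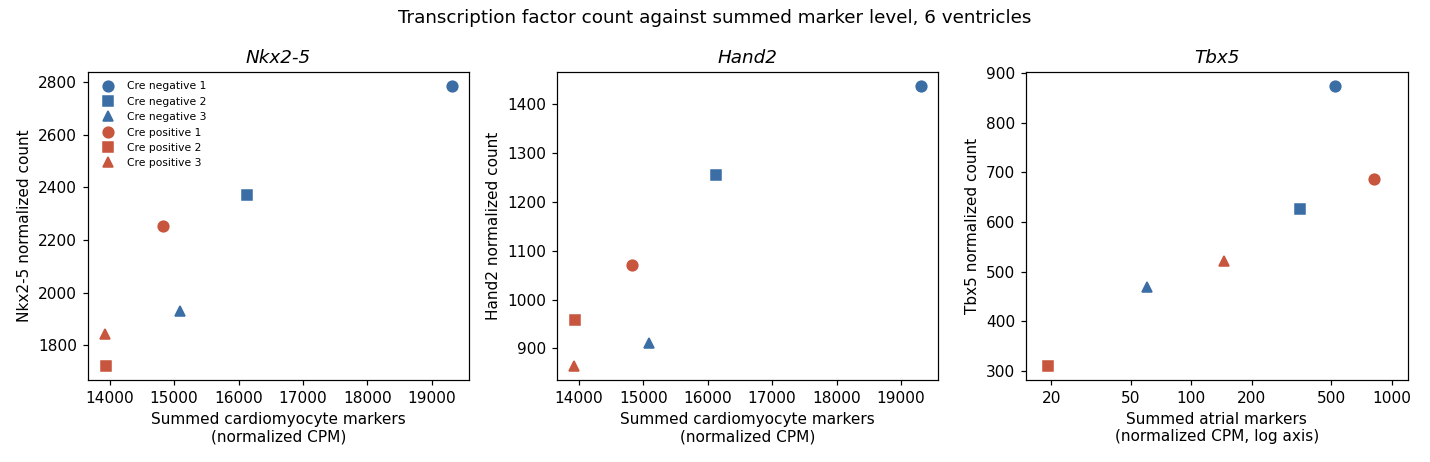
Normalized counts of *Nkx2-5* and *Hand2* against the summed CPM of 10 cardiomyocyte markers, and of *Tbx5* against the summed CPM of 4 atrial markers (log axis); each point is 1 ventricle, by genotype (colour) and replicate (shape), and count axes do not start at 0. Cre negative 1 is at the upper right of the first 2 panels, and Cre positive 2 is at the lower left of the *Tbx5* panel at 19.2 CPM and 309 counts.

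Of other cell types, the 8 fibroblast markers summed to 13300, 20350 and 18140 CPM in Cre negative and 23450, 18950 and 22290 CPM in Cre positive ventricles, lowest in Cre negative 1. The 8 macrophage markers summed to 2158 to 3074 against 2343 to 2799 CPM, the 8 endothelial markers to 1075 to 1206 against 1162 to 1269 CPM, and the 5 mural markers to 559.5 to 665 against 550.2 to 764 CPM. Neutrophil (36.8 to 123 CPM), lymphocyte (5.5 to 42.2 CPM), epicardial (29.6 to 148 CPM) and skeletal muscle markers (6.74 to 50.4 CPM) were low, and none of these 8 lists had a gene past the adjusted test. Their part in the levels of the factors was not tested.

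Relatives of the factors, from the same protein families or the Iroquois group, were also counted. Of 15 listed, 14 were found and 9 were tested, of which 3 had estimates above and 6 below 0, with 0 past the adjusted test and a median of -0.18. The median of these 9 was -0.28 without Cre negative 2 and -0.06 on log2(TPM + 1). *Gata1* and *Hand1* were counted in Cre negative 1 alone, at 1.2 normalized counts, under the 2.77 to 3.53 that 3 counts are worth. *Gata3*, *Mef2b* and *Isl1* were also too low to be tested. *Tbx3*, a T-box repressor of the conduction system, had the lowest estimate, with 339, 197 and 209.8 normalized counts in Cre negative and 144, 145 and 179 in Cre positive ventricles (log2 fold change of -0.67 ± 0.23 (SE), edgeR adjusted p = 0.714). All Cre positive ventricles lay below all Cre negative ones, beside 6.85% of all genes, for *Tbx3* and for 2 further relatives chosen after their values were seen, and these 3 of 9 had an unadjusted p under 0.05, beside 5.83% of all genes. The other two were *Irx3*, an Iroquois factor of the ventricular conduction system (log2 fold change of -0.41 ± 0.13), and *Gata2*, an endothelial and blood cell factor (-0.34 ± 0.14). *Tbx1* had the highest estimate (0.67 ± 0.32, edgeR adjusted p = 0.714), from 16.5 to 25.5 normalized counts in Cre negative and 24.0 to 35.8 in Cre positive ventricles.

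Cofactors and repressors, such as the Fog proteins Zfpm1 and Zfpm2 that bind Gata4, the Srf coactivators of the myocardin family, and the class IIa deacetylases that hold Mef2, were measured for all 19 genes listed. Estimates were above 0 for 13 and below 0 for 6, with 0 past the adjusted test and a median of 0.09 (0.06 without Cre negative 1 and 0.20 on log2(TPM + 1)). *Hopx*, a homeodomain protein that restrains Srf, had the lowest, with 2382, 1659 and 1432 normalized counts in Cre negative and 1275, 1257 and 1281 in Cre positive ventricles (-0.52 ± 0.18 (SE), edgeR adjusted p = 0.714). *Elk4*, an Ets factor that binds beside Srf, had the highest, with 90.5, 86.3 and 91.3 against 117, 107 and 109 (0.32 ± 0.14, edgeR adjusted p = 0.714). In all, 4 of the 19 lay wholly above (beside 7.55% of all genes) and 2 wholly below (beside 6.85%) in Cre positive ventricles, *Elk4* and *Hopx* among them. The calcineurin-responsive factors *Nfatc3* (0.20 ± 0.08) and *Nfatc4* (0.26 ± 0.11), named after their values were seen, had estimates above 0 and, like *Hopx*, an unadjusted p under 0.05, so that 3 of 19 did, beside 5.83% of all genes.

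The 18 cardiomyocyte target genes tested, known targets of Gata4, Nkx2-5, Tbx5 and Mef2, had estimates above 0 for 5 and below 0 for 13, with 0 past the adjusted test and a median of -0.26. In 6 of the 18 all Cre positive ventricles lay below all Cre negative ones, beside 6.85% of all genes, and in 1 (*Xirp2*) all lay above, beside 7.55%. *Tnnt2*, cardiac troponin T, had the lowest estimate, with 95009.8, 66104 and 60500.2 normalized counts in Cre negative and 56146, 51051 and 56286 in Cre positive ventricles (-0.44 ± 0.19 (SE), edgeR adjusted p = 0.714). *Gja5*, the connexin of the conduction system, had the highest, with 265, 305 and 265 against 380.2, 278 and 391 (0.33 ± 0.15, edgeR adjusted p = 0.714). An unadjusted p under 0.05 was found for 2 of 18, beside 5.83% of all genes. These were *Myl2* (-0.32 ± 0.13), the ventricular myosin light chain, and *Xirp2* (0.32 ± 0.13), an actin-binding protein of the intercalated disc, both named after their values were seen. The median of the 18 was -0.05 without Cre negative 1 and -0.11 on log2(TPM + 1), and with the cardiomyocyte marker level as a covariate it was 0.11.

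The 14 smooth muscle and cytoskeletal targets of Srf lay on the other side. Estimates were above 0 for 13 of 14, with 0 past the adjusted test and a median of 0.35, and in 5 of 14 all Cre positive ventricles lay above all Cre negative ones, beside 7.55% of all genes. *Actg2*, smooth muscle gamma actin, had the highest estimate, with 41.1, 157 and 165 normalized counts in Cre negative and 176, 218 and 238 in Cre positive ventricles (0.79 ± 0.43 (SE), edgeR adjusted p = 0.714), and Cre negative 1 was far below the others. *Cnn1* (calponin), *Lmod1* (leiomodin) and *Cald1* (caldesmon), proteins of the smooth muscle thin filament, had log2 fold changes of 0.61, 0.47 and 0.36. They were the 3 of 14 genes with an unadjusted p under 0.05, beside 5.83% of all genes, and were named after their values were seen. *Smtn*, smoothelin, had the lowest estimate at -0.03. Without Cre negative 1 the median of the 14 was 0.16, and with the cardiomyocyte marker covariate it was 0.04. A CArG box was present in the promoter windows of 2 of the 10 targets with an entry (*Myl9* and *Vcl*), beside 1.62% of all genes. The 7 immediate early targets had a median of 0.11, with 6 estimates above 0 and 0 past the adjusted test, from *Fosb* (-0.22) to *Egr3* (0.33). Their median was 0.0005 without Cre positive 1, 0.03 without Cre negative 2, 0.18 without Cre positive 2 and 0.23 on log2(TPM + 1).

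**Figure D5:**
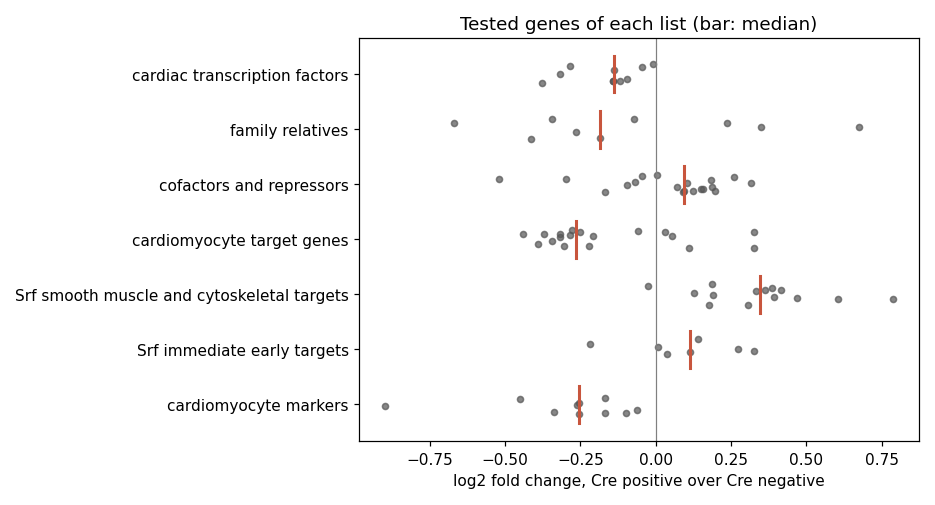
log2 fold change, Cre positive over Cre negative, of every tested gene in each list (grey points) with the list's median (red bar). The 10 factors lie between -0.38 and -0.01 around a median of -0.14, while the smooth muscle and cytoskeletal targets of Srf centre on 0.35 and the cardiomyocyte targets on -0.26; no gene shown passed the adjusted test.

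Genes whose log2 normalized counts ran most like those of a factor were ranked by Pearson's r over the 6 ventricles. With so few ventricles and 13817 genes, each factor had between 91 (*Tbx20*) and 585 (*Gata6*) genes with r over 0.9. *Nkx2-5* was most like *Txnrd2* (r = 0.998), *Acy3* (0.996) and *F3* (0.993), and *Hand2* most like *Prdx6* (0.99), *Mybpc3* (0.989) and *Kansl3* (0.989). *Mybpc3* is one of the 10 cardiomyocyte markers. *Tbx5* was most like *Ufsp1* (0.989), *Lmntd1* (0.989) and *Dhrs7* (0.986). *Srf* was most like *AI464131* (0.994), *Pard3* (0.992) and *Ralgapa2* (0.991), and none of the first 3 genes of any factor was another of the 10. These values share their libraries and the high Cre negative 1, and they are descriptions with no test.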

How the data were processed

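Total RNA of 3 Cre positive and 3 Cre negative left ventricles was sequenced, 1 library per mouse. Submitters' processing notes name Bowtie2 2.2.5, RSEM 1.2.12 and GRCm38.p6; annotation and strand setting are not given in the sources used here. The authors deposited estimated counts (11.5% not whole), FPKM (not used) and TPM values per gene. They also deposited averages and their own DESeq2 comparison (fold changes, p- and q-values), which were not used.

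Estimated counts were rounded to whole numbers and fitted in edgeR 4.0.16 (R 4.3.3; filterByExpr with minimum count 10 and total 15, TMM, quasi-likelihood test, Benjamini-Hochberg adjustment over 13817 genes, threshold 0.05). Standard errors came from the F statistic and intervals are 95%. The fit was tested on simulated data. Log2 values used a prior count of 2. Exact permutation tests were two-sided. Alternatives were DESeq2 1.42.0, limma-trend 3.58.1 on log2(TPM + 1), other scalings and filters, covariates, a replicate block and leaving out each ventricle. Depths of 13177888 to 14827579 counts limit the precision of low genes, and the floor of 3 counts covers counting error only. P-values measure the spread between these mice.

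The 10 factors and all gene lists were chosen with earlier results of these data known. Genes named are the 10 factors, the targeted genes, the highest and lowest estimate of each list, any gene of a list past the adjusted test, and the 3 genes most like a factor. Other genes fall outside that rule and were named after their values or sequences were seen: those with an unadjusted p under 0.05, *Gbp2b*, those holding a motif, list genes too low to be tested, and the atrial markers. Positions and promoters are RefSeq's on GRCm38.p6, and 17443 gene numbers matched. Figures were drawn with matplotlib 3.10.9.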

Additional observations from a re-analysis of the deposited data

How the results depend on the processing

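None of the 10 factors passed the adjusted test under any alternative run, and their adjusted p ranged from 0.466 to 0.9996 (DESeq2, edgeR or limma). The count of genes past the adjusted test over the whole table was 1, and it was 5 with the DESeq2 Wald test, 2 with limma on log2(TPM + 1), and 0 to 2 when 1 ventricle was left out (0 without Cre positive 1, Cre positive 3 or Cre negative 3, and 2 without Cre negative 1). The number of factors with estimates below 0 was 10, and it was 6 on log2(TPM + 1), 2 with the cardiomyocyte marker covariate and 6 to 10 when 1 ventricle was left out (6 without Cre negative 1). The cause was not tested.

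The sign turned with upper-quartile scaling for *Mef2c* (0.0018), on log2(TPM + 1) for *Gata6* (0.0117), *Tbx20* (0.0269), *Mef2a* (0.0722) and *Mef2c* (0.1066), and with the atrial covariate, chosen after seeing the data, for *Mef2c* (0.01). With the cardiomyocyte covariate it turned for *Gata6* (0.2485), *Nkx2-5* (0.0854), *Tbx5* (0.3062), *Tbx20* (0.0101), *Hand2* (0.0922), *Mef2a* (0.0549), *Mef2c* (0.1097) and *Srf* (0.1213). Leaving out 1 ventricle gave -0.2328 to -0.0742 for *Gata4*, -0.4102 to -0.1538 for *Nkx2-5*, -0.6614 to -0.1209 for *Tbx5*, -0.1915 to -0.0199 for *Tbx20*, -0.4806 to -0.1718 for *Hand2*, -0.201 to -0.1001 for *Mef2d*, -0.2421 to 0.0319 for *Gata6*, -0.0825 to 0.0105 for *Mef2a*, -0.037 to 0.039 for *Mef2c* and -0.255 to 0.0015 for *Srf*. It gave Cre positive minus Cre negative differences in log2 ratio of -0.117 to 0.124 for *Gata4* to *Gata6*, -0.649 to 0.088 for *Tbx5* to *Tbx20*, -0.032 to 0.091 for *Mef2c* to *Mef2a*, -0.123 to -0.043 for *Mef2d* to *Mef2a* and 0.09 to 0.174 for *Mef2c* to *Mef2d*.

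The number of factors related to the cardiomyocyte markers past the threshold was 2, and it was 0 on log2(TPM + 1) and 0 with atrial markers. On log2(TPM + 1) r was -0.205 for *Tbx20*, -0.36 for *Mef2a* and -0.828 for *Mef2c*, and with atrial markers -0.367 for *Tbx20* and -0.018 for *Mef2a*. Leaving out 1 ventricle gave r of 0.197 to 0.864 for *Gata4*, 0.374 to 0.941 for *Gata6*, 0.849 to 0.969 for *Nkx2-5*, 0.594 to 0.867 for *Tbx5*, 0.807 to 0.947 for *Hand2*, 0.621 to 0.902 for *Mef2d*, -0.298 to 0.841 for *Tbx20*, -0.409 to 0.746 for *Mef2a*, -0.086 to 0.806 for *Mef2c* and -0.116 to 0.966 for *Srf*.

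Deviations of ventricles with the same replicate number had r of 0.354, 0.073 and -0.032, beside -0.368 to 0.354 for different numbers. The numbers were not taken as pairs. Even so, replicate 2 of both genotypes had a low Y-linked level, and replicate 1 had the highest atrial marker level of its genotype. With the Y-linked level as a covariate, all 10 factors had estimates below 0 and 0 of 10 passed the adjusted edgeR test. With the replicate block, edgeR called 0 genes (1217, or 8.81%, at an unadjusted p under 0.05), and all 10 factors were below 0, with 2 of them (*Nkx2-5* and *Hand2*) at an unadjusted p under 0.05 and adjusted p of 0.562.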
